A study of Mus musculus with 6 samples.

Results

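Wnt proteins are secreted lipid-modified ligands that bind Frizzled receptors at the cell surface. In the canonical branch this stabilises beta-catenin, which then acts with TCF and LEF factors on target genes, and several of those targets encode inhibitors that limit the same signal. In the embryonic heart, Wnt signalling is known for its roles in the expansion of second heart field progenitors and in the growth of the venous pole. The genes described here are 39 members of that pathway: 19 Wnt ligand genes, the 10 Frizzled receptor genes, and 10 genes of targets, inhibitors or modulators (*Axin2*, *Lef1*, *Tcf7*, *Nkd1*, *Lgr5*, *Dkk1*, *Sfrp1*, *Sfrp5*, *Notum* and *Rspo3*).

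Open chromatin was measured by ATAC-seq, in which Tn5 transposase cuts accessible DNA and tags it for sequencing. It was run on the atria (labelled HT) and on the posterior second heart field (pSHF), a progenitor field behind the heart. Both were cut by microdissection from wild-type CD1 mouse embryos at day 10.0 of development (E10.0). CD1 is an outbred strain, the dissected tissue was pooled and dissociated before lysis, and the groups differ by no allele or treatment. Each tissue had 3 samples but 1 deposited peak list, so every value below belongs to a list. The spread between replicates is unknown, and no p-value is given. Whole microdissected pieces hold several cell types, and fewer cells of a type cannot be told apart from less open chromatin per cell.

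A peak was counted for a member when that gene's body was the nearest protein-coding gene body to the peak's summit, within 100 kb in mm10. This gave 139 of 44018 pSHF peaks and 110 of 49267 HT peaks, and all 39 members had a peak in at least 1 list, against 75.2% of 21627 protein-coding genes. Peaks with 1 bp or more in common between the lists were called shared and all others restricted, so a restricted peak may still be open below the threshold in the other tissue. Which gene an element regulates was not measured. Of the 139 pSHF peaks, 56 lay nearest a ligand gene, 36 nearest a receptor gene and 47 nearest a target or inhibitor gene, and the HT numbers were 44, 21 and 45.

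The labels could be set against marker loci. Peaks nearest 6 atrial cardiomyocyte genes comprised 23 HT-restricted peaks and no pSHF-restricted peak, and those nearest 4 genes of pSHF and splanchnic mesoderm comprised 21 pSHF-restricted and 3 HT-restricted peaks. In the latter list *Gas1* had 11 and 0 and *Foxf1* 7 and 1, whereas *Osr1* had 1 and 0 and *Isl1*, a second heart field marker, had 2 of each. Peaks nearest markers of other cell types were counted in the same way. The pSHF-restricted and HT-restricted numbers were 15 and 9 at 4 foregut endoderm genes, 9 and 2 at 3 somite genes, 6 and 21 at 3 endothelial genes, 0 and 9 at 3 erythroid genes, and 2 and 6 at 3 neural tube genes. Their part in the results below was not tested.

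The sequences shown are RefSeq start windows, which run from 250 bases before to 50 after an annotated start (GRCm38.p6, the coordinates of mm10). They are shown because restricted peaks lay over the windows of 3 ligand starts and of no receptor, target or inhibitor gene. Windows were on hand for 27 of the 39 members, 34 windows in all. Peaks of both lists lay over 15 of them (44.1%, against 52.4% of 21044 windows of protein-coding genes), and 14 lay under no peak. HT peaks alone lay over 4 (11.8%, against 3.2%) and pSHF peaks alone over 1 (2.94%, against 2.41%). Of the HT peaks, those at *Wnt4* and at a later start of *Wnt11* were shared peaks whose pSHF partner lay outside the window. A pSHF-restricted peak covered 1 window (2.94%, against 2.25% of all windows), that of *Wnt1*, and HT-restricted peaks covered 2 (5.88%, against 2.72%), that of *Wnt2b* and an internal start of *Wnt5b*. Those 3 windows are printed first, 5′ to 3′ on the strand of the gene, with the bases inside the restricted peak in capitals. The 3 that follow are, for each role, the window under peaks of both lists whose weaker fold enrichment is highest, with the bases inside the peaks of both lists in capitals.
Wnt1 start, pSHF-restricted: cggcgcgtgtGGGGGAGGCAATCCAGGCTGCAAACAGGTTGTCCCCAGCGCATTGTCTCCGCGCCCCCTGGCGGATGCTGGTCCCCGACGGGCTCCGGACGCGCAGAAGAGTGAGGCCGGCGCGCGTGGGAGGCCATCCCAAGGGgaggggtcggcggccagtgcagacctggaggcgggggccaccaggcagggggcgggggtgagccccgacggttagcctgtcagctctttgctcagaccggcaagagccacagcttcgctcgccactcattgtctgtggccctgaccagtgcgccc
Wnt2b start, HT-restricted: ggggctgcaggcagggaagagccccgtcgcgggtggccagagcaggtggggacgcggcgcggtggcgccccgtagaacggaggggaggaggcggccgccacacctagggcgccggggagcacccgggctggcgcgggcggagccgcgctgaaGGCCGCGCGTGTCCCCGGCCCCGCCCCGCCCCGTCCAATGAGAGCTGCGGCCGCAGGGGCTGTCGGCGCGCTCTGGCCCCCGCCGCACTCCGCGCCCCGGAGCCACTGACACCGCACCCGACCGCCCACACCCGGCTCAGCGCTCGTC
Wnt5b internal start, HT-restricted: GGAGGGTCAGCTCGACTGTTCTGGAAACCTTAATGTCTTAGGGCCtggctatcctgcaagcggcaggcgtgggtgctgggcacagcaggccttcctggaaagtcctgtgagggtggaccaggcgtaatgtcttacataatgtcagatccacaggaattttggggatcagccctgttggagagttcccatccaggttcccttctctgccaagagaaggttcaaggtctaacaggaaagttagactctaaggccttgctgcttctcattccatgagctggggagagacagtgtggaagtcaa
Wnt5b distal start, both lists: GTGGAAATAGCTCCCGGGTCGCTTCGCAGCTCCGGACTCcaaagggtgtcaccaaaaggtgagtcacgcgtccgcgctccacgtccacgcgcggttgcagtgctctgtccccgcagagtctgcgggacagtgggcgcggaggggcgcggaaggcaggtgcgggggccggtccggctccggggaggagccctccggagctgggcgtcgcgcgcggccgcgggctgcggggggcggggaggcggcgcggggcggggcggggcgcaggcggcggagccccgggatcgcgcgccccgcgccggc
Fzd1 start, both lists: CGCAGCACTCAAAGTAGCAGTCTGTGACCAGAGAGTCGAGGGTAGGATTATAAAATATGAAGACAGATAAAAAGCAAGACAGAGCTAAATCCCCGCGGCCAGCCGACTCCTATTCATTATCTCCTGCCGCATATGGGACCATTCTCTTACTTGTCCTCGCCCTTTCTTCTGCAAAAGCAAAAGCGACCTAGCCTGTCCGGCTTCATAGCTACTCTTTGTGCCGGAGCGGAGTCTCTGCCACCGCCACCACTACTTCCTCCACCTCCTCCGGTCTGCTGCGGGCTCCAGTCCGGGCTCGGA
Axin2 start, both lists: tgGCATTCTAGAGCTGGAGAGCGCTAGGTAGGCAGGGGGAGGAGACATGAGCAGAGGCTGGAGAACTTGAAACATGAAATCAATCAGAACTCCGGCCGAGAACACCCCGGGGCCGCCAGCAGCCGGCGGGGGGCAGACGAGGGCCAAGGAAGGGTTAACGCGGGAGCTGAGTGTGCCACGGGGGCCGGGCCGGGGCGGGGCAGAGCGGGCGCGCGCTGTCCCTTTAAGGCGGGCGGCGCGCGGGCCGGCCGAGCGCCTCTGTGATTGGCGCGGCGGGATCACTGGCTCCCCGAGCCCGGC

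In the *Wnt1* window (chr15:98789607-98789906, plus strand) the pSHF-restricted peak covered 135 bases, all before the start, at a fold enrichment of 4.07 over the caller's background. The *Wnt2b* window (chr3:104961660-104961959, minus strand) had 148 bases under an HT-restricted peak of 3.94, at its 3′ end and across the start. The internal *Wnt5b* window (chr6:119467162-119467461, minus strand) had 45 bases under an HT-restricted peak of 3.17, the weakest restricted peak of any ligand gene in HT. The distal *Wnt5b* start (chr6:119544298-119544597, minus strand) lay under peaks of both lists, 5.58 in pSHF and 4.52 in HT. At *Fzd1* (chr5:4758167-4758466, minus strand) peaks of 8.42 and 9.17 covered all 300 bases, and at *Axin2* (chr11:108920099-108920398, plus strand) peaks of 6.21 and 7.36 shared 298.

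The printed windows differ in base composition. The internal *Wnt5b* window held 4 CG dinucleotides and was 53.0% G or C, whereas the distal one held 47 and was 78.0%. *Wnt2b* held 43, *Axin2* 31, *Wnt1* 26 and *Fzd1* 16, against a median of 25 over the 34 member windows and of 13 over all windows. Short motifs were searched on both strands. CTTTGAT, a core of TCF and LEF sites, stood in 2 member windows (5.88%, against 3.25% of all windows), the first start of *Wnt11* and a start of *Wnt5b* that is not printed, and neither lay under a peak. The core of sites for GATA factors, AGATAA, stood in 4 member windows (11.8%, against 9.68%), those of *Fzd1*, *Sfrp5* and *Wnt8b* and a start of *Lef1*. The GLI site TGGGTGGTC stood in none (against 0.181%). A match describes letters and not a bound site.

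Over all members, pSHF-restricted peaks outnumbered HT-restricted peaks, which is the reverse of the order over the genome. There were 62 pSHF-restricted and 39 HT-restricted member peaks, so 61.4% of the restricted peaks were from the pSHF (exact Clopper-Pearson 95% interval 51.2 to 70.9, counting error over peaks only). Over all 32679 restricted peaks with a gene within 100 kb the share was 39.3%. Within each list, 44.6% of the members' pSHF peaks (36.2 to 53.3) and 35.5% of their HT peaks (26.6 to 45.1) were restricted, against 31.8% and 43.7% of all such peaks. By gene, 20 of 39 members (51.3%) had more pSHF-restricted peaks, against 15.0% of all protein-coding genes, and 7 (17.9%) had more HT-restricted peaks, against 29.3%. Since all members and only part of all genes had peaks, the same was read among genes with a restricted peak: 20 of 34 members (58.8%, against 29.5%) and 7 of 34 (20.6%, against 57.9%). The median balance per gene, log2 of (pSHF-restricted + 1) over (HT-restricted + 1), was 0.26 over members. Over all 21627 genes it was 0, a value set by the 10678 with no restricted peak and the 1380 with equal numbers.

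**Figure D1:**
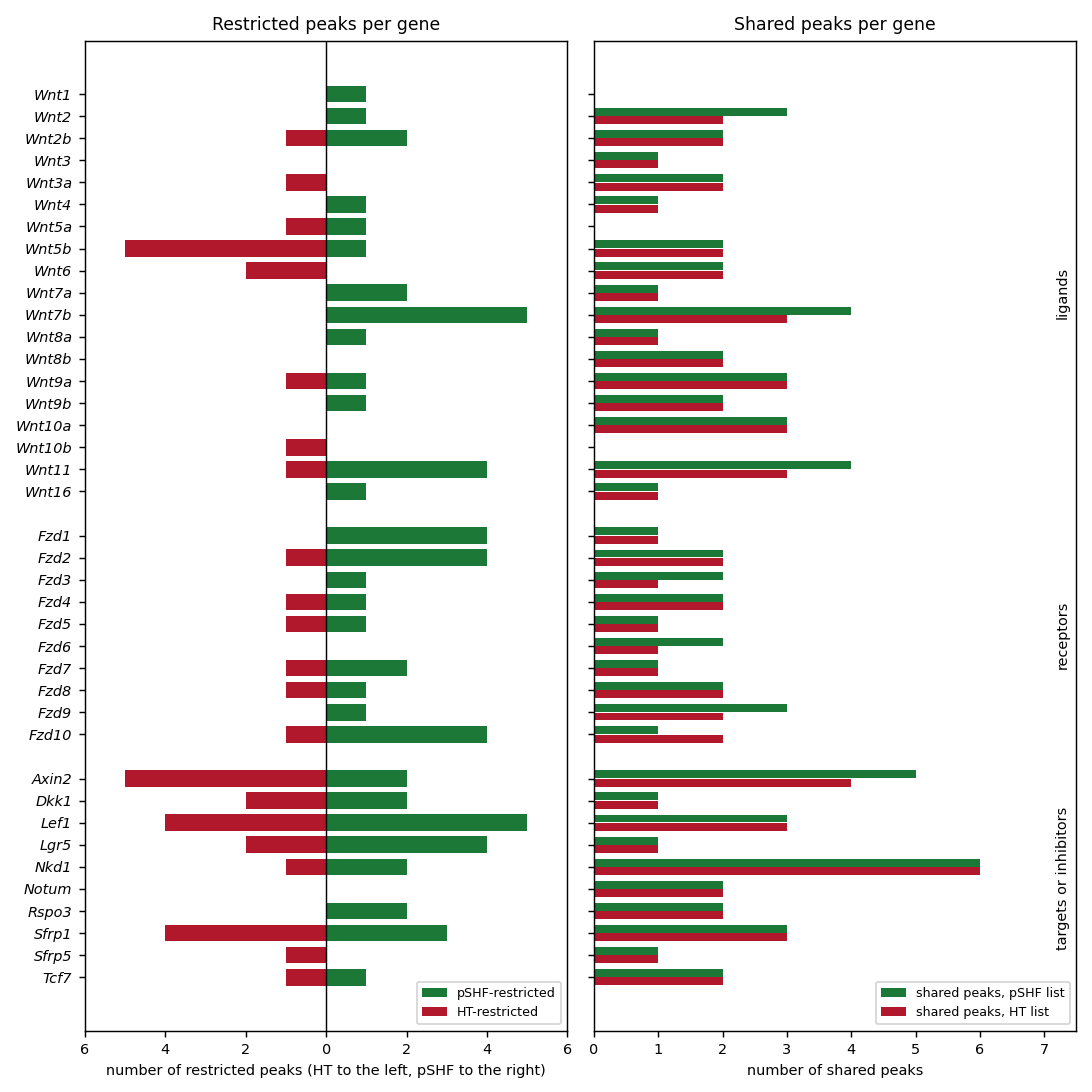
Bars give the number of peaks nearest each of the 39 genes, on the left restricted peaks (HT to the left of 0, pSHF to the right) and on the right shared peaks of each list. Among the 10 Frizzled genes no bar is longer on the HT side, while *Wnt5b* and *Axin2* carry 5 HT-restricted peaks each.

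The Frizzled receptor genes had the largest pSHF share of the 3 roles, except when restricted peaks below the median fold of their list were dropped, where ligands had 85.7% (6 and 1) and receptors 75% (3 and 1). Nearest them lay 19 pSHF-restricted and 6 HT-restricted peaks (76.0% from pSHF, 54.9 to 90.6). Of 10 genes, 6 had more pSHF-restricted peaks, none had more HT-restricted peaks, 3 had equal numbers and *Fzd6* had none of either. The ligand genes had 22 and 13 (62.9%, 44.9 to 78.5), with the pSHF ahead at 10 of 19 genes and HT at 4. The target and inhibitor genes had 21 and 20 (51.2%, 35.1 to 67.1), with the pSHF ahead at 4 of 10 and HT at 3. The intervals of the 3 roles overlap, and the difference between roles was not tested.

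Among the stronger restricted peaks of members HT led in number, as it did over all peaks. Restricted peaks with a −log10 q of at least 5 numbered 8 among the pSHF peaks of members (5.76%, against 4.92% of all pSHF peaks) and 11 among their HT peaks (10.0%, against 17.8%). Over all peaks with a gene within 100 kb they numbered 1986 in pSHF and 8073 in HT. Those of members were, pSHF first, 3 and 2 at ligands (5.36% and 4.55% of their peaks) and 3 and 2 at receptors (8.33% and 9.52%). Targets or inhibitors had 2 and 7 (4.26% and 15.6%), near the shares of all peaks. The median fold enrichment of pSHF-restricted member peaks was 4.16 (quartiles 3.51 and 4.70), with a median pileup of 9 reads at the summit, where the smallest pileup of any peak in either list was 5. The HT-restricted median was 4.55 (3.89 and 4.94), also with 9 reads. Over all assigned restricted peaks the medians were 4.30 with 8 reads in pSHF and 4.81 with 9 reads in HT, so low values were general to restricted peaks. Shared member peaks had medians of 4.85 in pSHF and 5.22 in HT, and over all assigned peaks the shared medians were 5.60 and 7.10. Part of the restricted peaks lay beside a peak of the other list: 11 of the 62 pSHF-restricted peaks (17.7%, against 18% of all) and 5 of the 39 HT-restricted peaks (12.8%, against 10.6%) were within 500 bp of one. At receptors this held for 6 of the 19 pSHF-restricted peaks (31.6%), and the other 13 stood against 5 in HT.

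**Figure D2:**
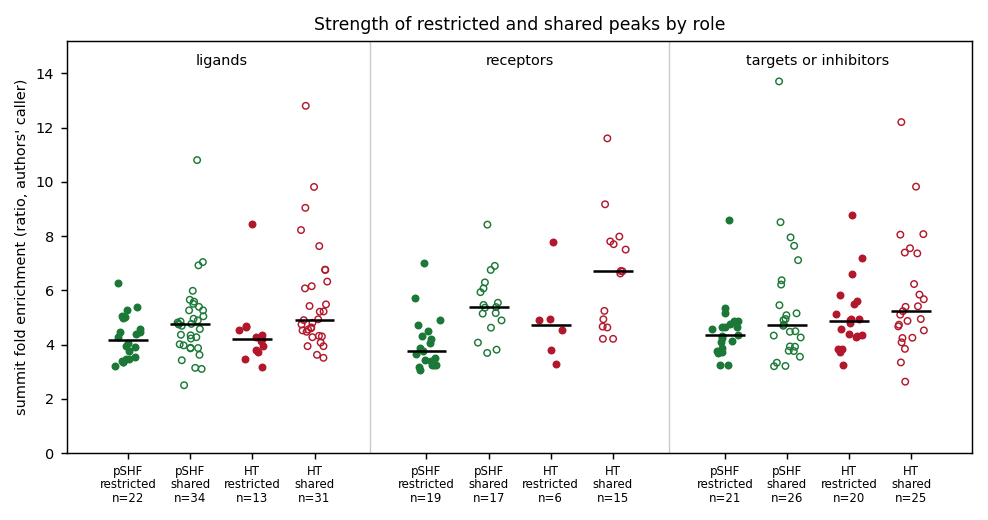
Each point is a peak nearest a member and its height is the authors' summit fold enrichment (a ratio). Filled points are restricted, open points shared, and black lines are medians. Within each role and list the restricted median lies below the shared median, from 3.75 against 5.38 at receptors in pSHF to 4.85 against 5.23 at targets or inhibitors in HT.

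Among the ligands, *Wnt7b* had the largest pSHF excess. *Wnt7b* encodes a ligand known from lung epithelium (chromosome 15, 85535437 to 85581821). It had 5 pSHF-restricted peaks and no HT-restricted peak, beside 4 shared pSHF peaks. The 5 had fold enrichments of 5.28, 5.01, 4.47, 4.28 and 3.34. The strongest, at 85523508 to 85523980, held 3 summits and reached a −log10 q of 6.42, and it lay 11.5 kb from the lower-coordinate end of the gene. No HT peak came within 11.0 kb of any of the 5. The strongest peak of the locus was shared, at 85634312 to 85635187 and 52.9 kb beyond the other end, with 10.8 in pSHF (pileup 47 reads) and 12.8 in HT (65 reads).

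*Wnt11*, which encodes a ligand known for beta-catenin-independent signalling in the cardiac outflow tract, had 4 peaks restricted to the pSHF and 1 to HT. The strongest, at chromosome 7, 98798017 to 98798216, lay 37.0 kb upstream, with a fold enrichment of 6.25, a −log10 q of 7.27 and no HT peak within 16.9 kb. The other 3 had 4.58, 4.45 and 3.34, at 55.9 and 12 kb upstream and inside the gene. The 1 HT-restricted peak (4.22) lay 684 bp from the pSHF-restricted peak of 4.45. Its 3 shared pSHF peaks about 20 kb upstream each had a lower value than the HT peak they overlapped, the lowest 2.5 against 4.80. The others, of 4.27 and 4.76, overlapped the same HT peak of 6.75.

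*Wnt5b* was the ligand gene with the largest HT excess. It spans 112 kb of chromosome 6 (119432531 to 119544824), and all 6 of its restricted peaks lay inside the gene, 5 in HT and 1 in pSHF. The HT-restricted values were 4.63, 4.55, 3.81, 3.73 and 3.17, with the strongest at 119499435 to 119499555, and the pSHF-restricted peak had 3.77. None reached a −log10 q of 5. A pSHF-restricted peak of 5.15 at 119543864 to 119544172 lies within the span of *Wnt5b* but was counted for the overlapping gene *Gm52875*, and another of 3.24 was counted for *Fbxl14*. *Wnt5a*, its paralog, had 1 restricted peak in each list: an HT-restricted peak of 4.68 (−log10 q 5.28) 255 bp inside an end of the gene, and a pSHF-restricted peak of 3.55 further in, 2.79 kb apart. *Wnt5a* had no shared peak.

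The remaining ligand genes had at most 3 restricted peaks. *Wnt7a* had 2 restricted peaks in pSHF (4.99 at 35.7 kb downstream, chromosome 6, 91328102 to 91328380, and 4.38 at 0.613 kb upstream of its start) and none in HT. *Wnt6* had 2 restricted peaks in HT (4.26 at 2.71 kb downstream, chromosome 1, 74787967 to 74788092, and 3.45 at its end) and none in pSHF. *Wnt2b*, expressed in the mesoderm around the early lung, had 2 pSHF-restricted peaks of 3.96 and 3.46 just upstream of the HT-restricted peak at its start, which was 164 bp away from the nearer of them. The other lay 48 bp from a further HT peak. *Wnt2*, a pSHF and lung mesoderm ligand, had a pSHF-restricted peak of 5.39 inside the gene (chromosome 6, 17998566 to 17998875), and no HT peak lay within 31.3 kb. Its start window lay under weaker peaks in the pSHF list, 4.34 and 4.01 against 7.63 in HT. *Wnt3a*, a canonical ligand of the caudal embryo, had the strongest restricted peak of any ligand, in HT: 8.44 with a −log10 q of 13.7 and 20 reads, inside the gene at chromosome 11, 59261140 to 59261374.

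Single pSHF-restricted peaks were found at *Wnt1* (4.07), *Wnt4* (3.20), *Wnt8a* (3.39), *Wnt9b* (5.05) and *Wnt16* (3.48), none with an HT-restricted peak. *Wnt9a* had 1 of each (3.90 in pSHF and 4.14 in HT), and *Wnt10b* had 1 HT-restricted peak (4.36). *Wnt3*, *Wnt8b* and *Wnt10a* had shared peaks alone, numbering 1, 2 and 3 in each list. Of the ligands, *Wnt1*, *Wnt5a* and *Wnt10b* had no shared peak. *Wnt1* and *Wnt10b* are neighbours 11.7 kb apart on chromosome 15, and the pSHF-restricted peak at the *Wnt1* start and the HT-restricted peak inside *Wnt10b* lay 12936 bp apart with no other peak of either gene. *Wnt3* and *Wnt9b* overlap by 1.1 kb, *Wnt6* and *Wnt10a* lie 6.70 kb apart and *Wnt3a* and *Wnt9a* 16.1 kb apart, so peaks between such pairs could belong to either gene.

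**Figure D3:**
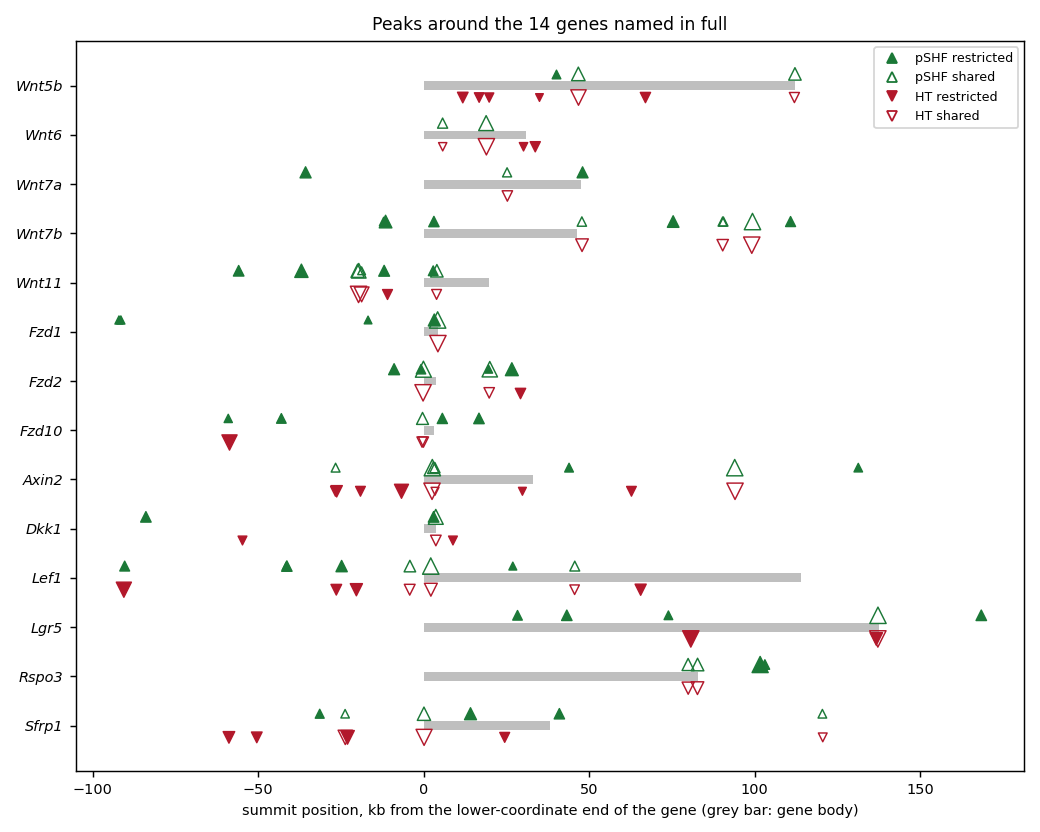
Triangles mark peak summits in kb from the lower-coordinate end of each gene (grey bar, gene body) for the 14 members with a restricted difference of at least 2 or at least 4 restricted peaks. Upward green triangles are pSHF peaks, downward red triangles HT peaks, filled restricted and open shared, and size grows with −log10 q up to 12. The pSHF-restricted peaks of *Wnt7b*, *Wnt11* and the Frizzled genes lie mostly outside the gene bodies, and the HT-restricted peaks of *Wnt5b* lie inside.

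Most restricted peaks of the Frizzled genes lay outside the gene bodies, which spanned 2.11 to 7.19 kb at 8 genes, 32 kb at *Fzd6* and 70.0 kb at *Fzd3*. Of the 19 pSHF-restricted receptor peaks, 15 (78.9%) lay outside the gene and more than 1 kb from its ends, against 34.6% of all pSHF-restricted peaks, and 5 of the 6 HT-restricted ones did. Their shared peaks were mostly at gene ends: 12 of 17 in pSHF (70.6%, against 49.3% of all shared pSHF peaks) and 11 of 15 in HT (73.3%, against 47.8%). *Fzd1* (chromosome 5, 4753839 to 4758216) was the receptor gene with the widest gap, 4 against 0. The strongest, at 4756962 to 4757322, lay inside the gene with a fold enrichment of 4.04, a −log10 q of 5.61 and 20 reads, and an HT peak lay 471 bp away. The other 3, 16.8, 91.5 and 92.1 kb downstream, had 3.23, 3.43 and 3.41, with pileups of 5 or 6 reads at the lower limit of the list.

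*Fzd2* had 4 restricted peaks in pSHF, of 5.71, 4.91, 3.18 and 3.05, and 1 HT-restricted peak of 4.55. The strongest, at chromosome 11, 102630886 to 102631188, lay 23.0 kb from the gene with a −log10 q of 6.77. The weakest lay 10 bp from an HT peak, and the one of 3.18 lay 408 bp from one. *Fzd10*, on chromosome 5, also had 4 and 1. Its pSHF-restricted peaks had 4.71, 4.49, 4.31 and 3.49, the strongest at 128617697 to 128617904, 13.7 kb downstream. Its HT-restricted peak was stronger than any of them, 7.77 with a −log10 q of 10.1 at 128542200 to 128542503, 58.8 kb upstream, and the pSHF-restricted peak of 3.49 ended 56 bp from it.

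*Fzd8* had 1 restricted peak in each list, and its pSHF-restricted peak was the strongest of the receptors at 7.0 (−log10 q 8.08, 12 reads), on chromosome 18, 9147720 to 9148137. It lay 65.0 kb from the gene and 38.5 kb from the nearest HT peak. *Fzd7* had 2 pSHF-restricted peaks (3.75 at 0.718 kb upstream and 3.64) and 1 in HT (4.90). *Fzd3* and *Fzd9* had 1 pSHF-restricted peak each (3.88 and 4.20). An HT peak lay 295 bp from the *Fzd7* peak of 3.75 and 119 bp from the *Fzd9* peak. With gaps of up to 500 bp counted as shared, neither *Fzd7* nor *Fzd9* kept a pSHF excess. *Fzd4*, an endothelial Norrin and Wnt receptor gene, had 1 of each at 3.23 and 3.29, and *Fzd5* had 1 of each at 3.23 and 3.80. The *Fzd5* HT-restricted peak, inside the gene, had 29 reads and a −log10 q of 7.45, the largest pileup of any restricted member peak. The peak over the *Fzd4* start (6.84 in pSHF, where a second peak of 4.34 adjoins it, and 9.41 in HT) was counted for *Tmem135*, whose body was nearer the summit.

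The target and inhibitor genes had restricted peaks of both kinds. *Axin2*, a direct beta-catenin target whose product promotes beta-catenin breakdown (chromosome 11, 108917828 to 108950783), had 7 restricted peaks, 5 of them in HT. The HT values were 6.61, 4.94, 4.33, 4.26 and 3.26, and the one of 4.94 lay 162 bp from a pSHF peak. The strongest HT-restricted peak was at 108910919 to 108911184, 6.72 kb upstream, with a −log10 q of 8.32, and the pSHF values were 3.73 and 3.69. *Axin2* also had the strongest pSHF peak of any member, a shared peak at 109011557 to 109012027, 61.0 kb downstream, with 13.7 in pSHF and 12.2 in HT. *Lef1*, encoding a nuclear partner of beta-catenin, had 5 pSHF-restricted peaks of 5.16, 4.77, 4.36, 3.26 and 3.23. Its 4 HT-restricted peaks had 7.18, 5.61, 4.90 and 4.80, so the 2 strongest were in HT. The peak of 7.18, at chromosome 3, 131019542 to 131019881 and 90.6 kb upstream, lay 24 bp from a pSHF-restricted peak of 4.36.

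*Lgr5*, encoding a receptor for R-spondins, had 4 pSHF-restricted and 2 HT-restricted peaks, and the HT ones were stronger. The pSHF values were 4.85, 4.66, 4.31 and 3.77. The HT values were 8.77 (−log10 q 12.1, at chromosome 10, 115530910 to 115531104, inside the gene) and 5.13 at the higher-coordinate end of the gene, 4 bp from a pSHF peak. The first had the highest fold enrichment of any HT-restricted member peak. *Rspo3*, which encodes an R-spondin that amplifies Wnt signals (chromosome 10, 29453106 to 29535867), had restricted peaks in pSHF alone, 2 in number. The stronger, at 29554462 to 29554839, was the strongest pSHF-restricted member peak, with 8.60, a −log10 q of 11.6 and 15 reads. It lay 18.9 kb beyond the gene, the second peak (4.24) lay 20.3 kb beyond it, and no HT peak was within 18.6 kb of either.

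Among genes of secreted antagonists, *Sfrp1* had 4 HT-restricted peaks (5.81, 5.48, 4.93 and 4.36) and 3 pSHF-restricted peaks (5.35, 4.59 and 3.86). Its peak of 5.81 (chromosome 8, 23388272 to 23388484) had a −log10 q of 7.78 and lay 511 bp from a pSHF peak, and the strongest pSHF-restricted peak lay inside the gene at 23425317 to 23425655. *Dkk1*, whose product blocks the LRP co-receptors, had 2 of each, 4.85 and 4.64 in pSHF and 3.84 at both in HT. The strongest, at chromosome 19, 30461796 to 30462090, lay 83.9 kb downstream. *Sfrp5*, a gene known from venous pole progenitors, had 1 HT-restricted peak of 3.74 and none in pSHF. *Notum*, encoding a deacylase that inactivates Wnt proteins, had 2 shared peaks in each list and no restricted peak. *Nkd1*, encoding an inhibitor of Dishevelled, had 2 pSHF-restricted peaks (4.13 and 4.08), 1 in HT (4.57) and 6 shared peaks in each list, more than any other member. *Tcf7*, encoding another nuclear partner of beta-catenin, had 1 of each (4.66 and 4.39).

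Shared peaks were compared by their fold enrichment in the 2 lists, as log2 of pSHF over HT. Each list's values were scaled by the caller to its own background, and the ratio describes these lists alone. The median over all 27546 shared pairs with a gene within 100 kb was -0.32, so a typical shared peak had the higher value in HT, and members are read against that. Over 77 member pairs the median was -0.21 (quartiles -0.51 and 0.03). It was -0.26 over 34 ligand pairs, -0.28 over 17 receptor pairs and -0.08 over 26 target or inhibitor pairs. The pSHF value was the higher at 24 of the 77 (31.2%, against 21.7% of all pairs). Ratios at least 0.5 above the all-pair median were found at 14 (18.2%, against 11.9%) and ratios at least 0.5 below it at 7 (9.09%, against 13.8%).

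At gene ends, all 7 ligand pairs had a ratio above the all-pair median, against 45.4% of 13583 gene-end pairs. Their median was 0.15, against -0.36 over all gene-end pairs. These 7 were at *Wnt2*, *Wnt2b*, *Wnt4*, *Wnt5b*, *Wnt9a*, *Wnt10a* and *Wnt16*, with pSHF over HT values of 4.95 over 5.48, 4.89 over 3.94, 5.26 over 4.47, 5.58 over 4.52, 3.87 over 4.27, 5.65 over 6.32 and 5.26 over 4.74. At 4 of them the pSHF value was the higher (57.1%, against 16.7% of all gene-end pairs). These 4, at *Wnt2b*, *Wnt4*, *Wnt5b* and *Wnt16*, fell short of the reciprocal overlap limit used as an alternative below. Their summits lay 118, 179, 163 and 276 bp apart, so the ratios compare offset summits. The pairs at *Wnt2*, *Wnt9a* and *Wnt10a* met that limit, with summits 106, 40 and 15 bp apart. All of these had the higher value in HT (log2 -0.15, -0.14 and -0.16). The 27 ligand pairs away from gene ends had a median of -0.43, against -0.27 over all pairs there. Of them 44.4% exceeded the all-pair median, against 54.5%. At *Wnt2*, *Wnt7b* and *Wnt11*, neighbouring pSHF peaks were set against the same HT peak, so that HT peak counts more than once. Pairs over all genes were counted in the same way, and the contrast was not tested. The 12 receptor pairs at gene ends had a median of -0.31, near the general level. The largest ratios toward the pSHF were at *Dkk1* (7.11 over 4.73, log2 0.59, at its start), *Fzd2* (6.90 over 4.63, log2 0.58, 16.3 kb away) and *Notum* (4.94 over 3.34, log2 0.56). Those furthest toward HT were at *Tcf7* (3.92 over 8.05, log2 -1.04, at its start), *Axin2* (3.76 over 7.36, log2 -0.97), *Fzd7* (6.07 over 11.6, log2 -0.94, at its start) and *Wnt11* (2.5 over 4.80, log2 -0.94). The *Axin2* pair shares its HT peak with a second pSHF peak (6.21).

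**Figure D4:**
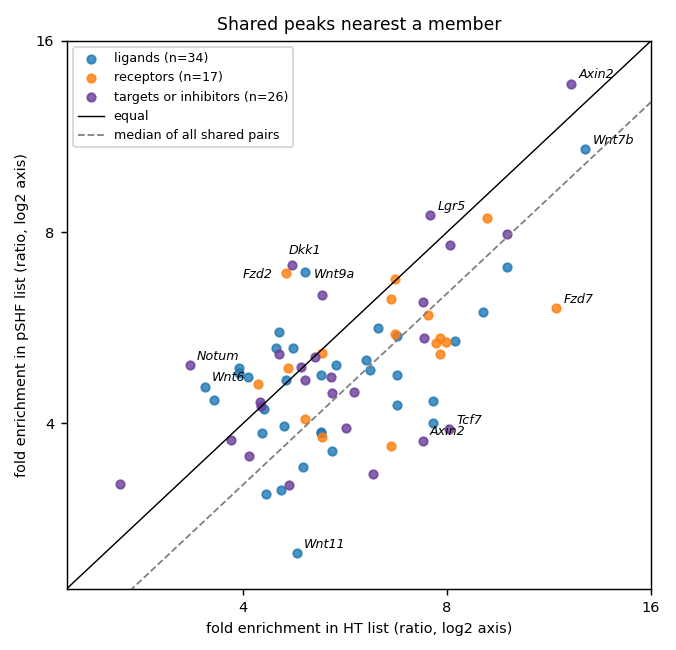
Each point is a shared peak nearest a member, with the fold enrichment of the HT list on the horizontal and of the pSHF list on the vertical axis (both log2 axes). The solid line marks equal values and the dashed line the median of all shared pairs (log2 -0.32). *Dkk1*, *Fzd2* and *Notum* lie furthest above the line of equal values, and *Tcf7*, *Axin2*, *Fzd7* and *Wnt11* include the points furthest below it.

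Over 41 further genes (co-receptors, Dishevelled and destruction complex genes, R-spondins, secreted antagonists and nuclear factors) there were 74 pSHF-restricted and 87 HT-restricted peaks. The pSHF share was 46.0% (38.1 to 54.0), beside 39.3% over all genes and 61.4% over the members, and the difference from the members was not tested. The pSHF was ahead at 15 genes (36.6%, against 15.0%) and HT at 18 (43.9%, against 29.3%), and *Dkk4* had no peak. Among those with a restricted peak, 42.9% had more in the pSHF (against 29.5%) and 51.4% had more in HT (against 57.9%). A pSHF excess of at least 3 was found at 5 of them, as at 5 of the 39 members (1.86% of all genes have one). These were *Tcf7l1*, a TCF factor gene, with 9 and 5 pSHF-restricted and HT-restricted peaks, *Znrf3*, encoding a ligase that removes Frizzled, with 5 and 1, *Celsr1*, a planar polarity gene, with 5 and 2, and *Rspo1* and *Sfrp2* with 3 and 0 each. An HT excess of at least 3 was found at 7 (6.34% of all genes have one). *Ryk*, a Wnt receptor tyrosine kinase gene, had 7 in HT and 1 in pSHF, *Lrp6* 6 and 2, *Lrp5* 3 and 0, the antagonist genes *Frzb* and *Dkk3* 5 and 1, and 4 and 1, *Apc* 3 and 0 and *Tcf7l2* 9 and 6. Both LRP co-receptor genes had more restricted peaks in HT. No Frizzled gene did as counted here, but under other settings 3 did: *Fzd8* with 2 and 4 within 500 kb and 0 and 1 within 50 kb, *Fzd5* with 0 and 1 when both lists were held to a −log10 q of 5 or more, and *Fzd10* with 0 and 1 when peaks below the median fold of their list were dropped, pSHF first.

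**Figure D5:**
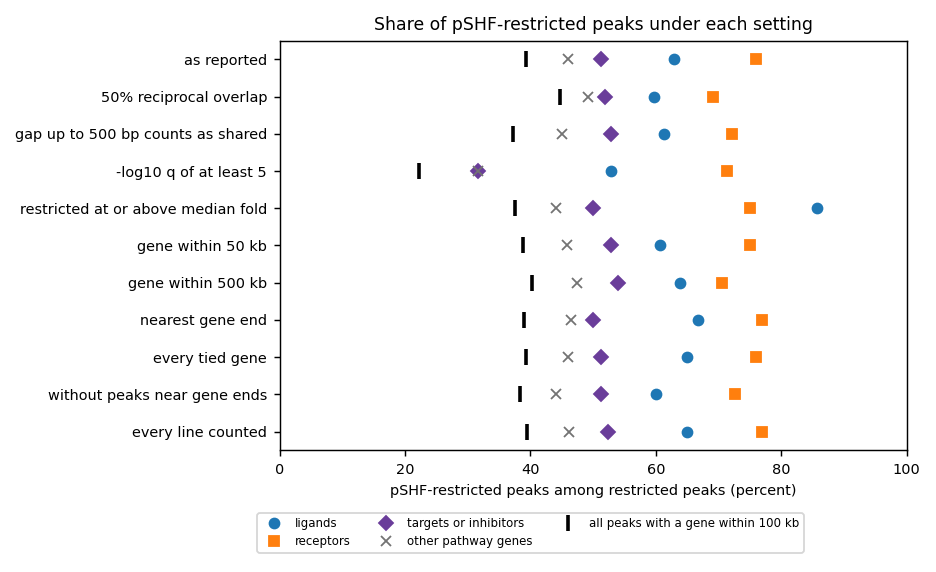
Points give the percent of restricted peaks that are pSHF-restricted for each role, for the other pathway genes and for all peaks with a gene within 100 kb, under the reported setting and 10 alternatives. Receptors lie between 69.2 and 76.9% and above the all-peak mark in every row. Targets or inhibitors drop to 31.6% at a −log10 q of at least 5, where the all-peak share is 22.2%.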

How the data were processed

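ATAC-seq peaks of pSHF and atria (HT) were taken from 1 deposited narrowPeak list per tissue; each tissue has 3 samples, and values per sample were not used here. The submitters' processing notes name MACS2 2.1.1, Bowtie2 2.3.2, Picard, SAMtools 1.5 and build mm10. The sources used here do not give roles, parameters or any pooling of samples. The deposited columns are a score, the fold enrichment of the summit (a ratio), the −log10 p-value, the −log10 q-value and the summit position. The deposited score was within 1 of 10 times the −log10 q-value at 100% of lines.

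Lines with equal intervals were merged to 1 peak, at the summit of highest fold enrichment. Gene bodies and start windows came from RefSeq tables of GRCm38.p6, and all 39 members matched by symbol. A summit in several gene bodies went to the gene with the nearest end. Read totals were not used here. Whole-read pileups were recovered from fold enrichment and p at 100% of peaks (within 0.01 on the log10 scale), over a genome background of 0.857 (pSHF) and 0.824 (HT) reads, and intervals cover counting error only. The overlap, assignment and pileup steps were tested on simulated data. Every member was named, with full values where the lists differed by at least 2 or at least 4 were restricted, and other pathway genes from a difference of 3. The members and lists were chosen with earlier results of these data known. Python 3.11.15, pandas 2.3.3, numpy 2.4.6 and scipy 1.17.1 were used.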

Additional observations from a re-analysis of the deposited data

How the results depend on the processing

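The main limit is 1 list per tissue: leaving out replicates was not run. Restricted peaks reached down to 5 reads, as did shared peaks, and the effect of depth on weak peaks was not tested. No paired analysis was possible because the lists carry no replicate numbers. Under the 10 alternatives for restricted peaks, the pSHF share of each role stayed above that of all peaks. The share of the other pathway genes did so too. As reported, the interval of the targets or inhibitors (35.1 to 67.1) includes the all-peak share of 39.3%. Of the group values recomputed, 27 moved and 81 did not.

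With 50% reciprocal overlap, restricted peaks numbered 37 (pSHF) and 25 (HT) at ligands and 12 in HT at receptors, with 62 in HT over all members and 117 in pSHF at the other pathway genes. With both lists held to a −log10 q of 5 or more, they numbered 9 and 8 at ligands, 5 and 2 at receptors and 6 and 13 at targets or inhibitors. Over all members they numbered 20 and 23, so that HT led in number. The pSHF share there was 46.5%, beside 22.2% over all peaks (3628 and 12731). The other pathway genes had 25 and 54. A peak whose partner fell below the cutoff counts as restricted there. Restricted peaks not below the median fold of their list numbered 6 and 1, 3 and 1, 5 and 5, 14 and 7, and 22 and 28 in the same order. Within 500 kb, receptors had 10 in HT. By pileup instead of fold enrichment, the median log2 ratio at shared peaks was 0 at receptors and over all members, beside -0.38 over all pairs.

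The pSHF minus HT difference changed sign at *Wnt5b* (1), *Lef1* (-1), *Lgr5* (-2), *Wnt2* (-1), *Wnt8a* (-1) and *Nkd1* (-1) with that q limit, at *Fzd10* (-1) and *Lef1* (-1) with the median fold limit, and at *Sfrp1* (1) within 50 kb.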
